A study of Mus musculus with 6 samples.

Results

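The ErbB receptors, a small family of receptor tyrosine kinases, and the EGF-like ligands that bind them were examined in RNA-seq data of 2 mouse cell lines. The genes were taken by name from the table of counts and comprised the receptors Egfr, Erbb2, Erbb3 and Erbb4, the adaptor Grb7 and the ligands Hbegf, Areg, Ereg, Tgfa and Btc, which are 10 of the 23284 genes in the table. MV+ was established from cultured lens epithelia of a wild-type C57BL6 mouse and is called Pax6-ON in the study, and RAG is a renal adenocarcinoma line of the BALB/c strain, called Pax6-OFF. The study asked how the chromatin around Pax6 folds in lines with different activity of this gene. Ribosome-depleted total RNA was sequenced from 3 untreated cultures per line, each grown in its own flask in the same serum-containing medium. Each group is therefore 1 cell line, so tissue, tumour origin and strain cannot be told apart, and p-values measure the spread between cultures.

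An ErbB receptor that binds a ligand pairs with a second receptor, and the kinases of the pair phosphorylate each other's tails, on which adaptor proteins assemble the RAS-MAPK and PI3K-AKT pathways. ERBB2 has no known ligand and serves as a partner of the other receptors, while ERBB3 has little kinase activity of its own. The ligands are made as membrane-bound precursors and are released by metalloproteases of the ADAM family. In the lens, EGF is known to stimulate growth of cultured epithelial cells, and in the kidney EGFR signalling is known for its part in the growth and repair of tubules.

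Libraries held between 17413045 and 22428230 counts in MV+ and between 28252165 and 43168532 in RAG, of which the ribosomal RNA precursor Rn45s took 12.42% to 20.11%. Among 14 lens markers, 9 were too low to test, and Foxe3, Crybb2 and Lim2 stayed at 0 in all libraries. Whether each of the 14 marks lens epithelium was not tested. The list summed to 138.7 to 162.9 CPM (counts scaled by library size) in MV+ and 143.4 to 157.9 in RAG, but from different genes. Pax6 (3611 counts in MV+ against 4), Mab21l1 (mean 28.2 against 0 CPM) and Prox1 (0.816 against 0 CPM) were higher in MV+. Maf and Cryab were higher in RAG, averaging 74 and 75 CPM against 25.7 and 35.6. MV+ also carried fibroblast and mesenchyme markers, whose sum was 2269.6 to 2996.3 CPM against 11.9 to 13.8 in RAG. Of 9 tested markers, 8 were called higher in MV+ and Pdgfra was called lower, at 1.13 against 5.02 CPM. The other 3 were not tested. Lum was at 0 in both lines, Thy1 had 1 count in each line, and Dcn had 19 counts in MV+ and 0 in RAG. In RAG, kidney epithelial markers summed to 731.6 to 797.1 CPM against 9.64 to 14.5 in MV+. Krt18 alone averaged 489.5 CPM in RAG. Of 8 tested markers of this list, 7 were called higher in RAG and Emx2 was called higher in MV+. The other 4 of its 12 genes were not tested. Among them, Slc34a1, a proximal tubule transporter, was at 0 in both lines. Epcam was at 0 in RAG and at 9 counts in MV+, and Cldn7 and Lhx1 reached only 9 and 5 counts in RAG. These marker levels go with the line in every comparison below, and their part in the results was not tested. Leukocyte and endothelial markers summed to 1.22 to 2.12 CPM in MV+ and 0.812 to 1.07 in RAG. Of that list only Alas2 had enough counts to test, and it was called higher in MV+, at 1.23 against 0.443 CPM. Pancreatic islet markers, which are not markers of the origin of either line, summed to 267, 229 and 115 counts in replicates 1, 2 and 3 of MV+ and to 6, 19 and 12 in RAG. Of the MV+ counts, 44, 59 and 68 were of Isl1, which was steady at 2.45, 2.81 and 2.77 CPM. Ins2 fell from 53 to 47 and 23 counts over the same libraries. With MV+ replicates 1 and 2 left out, a choice made after seeing these values, 5 of the 10 genes were called higher in MV+ and 3 lower, the counts found with all libraries. That fit holds 1 MV+ library, itself with 115 islet counts, and assumes that it varies as the RAG libraries do. The study also used the mouse insulinoma line β-TC3, called Pax6-HIGH, which is not among these libraries. Where the islet transcripts in MV+ came from, and their part in the results, was not tested.

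The bases before the start are shown for Egfr, Areg and Tgfa, whose levels differed most between the lines among the 6 genes with a promoter in the RefSeq table (Areg, Btc, Egfr, Erbb2, Erbb4 and Tgfa). The table is of GRCm38.p6, and each promoter matched a single place in mm9. Each run holds the 150 bases before the start on the plus strand, at chr11:16652056-16652205 for Egfr, chr5:91568475-91568624 for Areg and chr6:86145066-86145215 for Tgfa. The start is that of RefSeq, which lies 16 bases before the start given below for the counted gene in Areg and 29 bases before it in Tgfa. For Egfr they coincide. Capitals mark motifs found by letter match on either strand in the 250 bases before the start.
Egfr: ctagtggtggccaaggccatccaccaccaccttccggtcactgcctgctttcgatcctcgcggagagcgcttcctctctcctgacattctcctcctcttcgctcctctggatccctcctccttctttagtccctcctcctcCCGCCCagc
Areg: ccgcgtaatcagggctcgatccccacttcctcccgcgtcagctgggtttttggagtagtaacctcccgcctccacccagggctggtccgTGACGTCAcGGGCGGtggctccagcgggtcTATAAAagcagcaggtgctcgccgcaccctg
Tgfa: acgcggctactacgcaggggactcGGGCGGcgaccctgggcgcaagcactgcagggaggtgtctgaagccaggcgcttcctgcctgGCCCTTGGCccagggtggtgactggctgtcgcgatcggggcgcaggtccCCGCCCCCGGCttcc
The motifs searched were the GC box GGGCGG, the cAMP response element TGACGTCA, the AP-1 site TGANTCA, the AP-2 site GCCNNNGGC and the TATA box TATAAA. They occurred in 32.7%, 1.55%, 6.75%, 13.7% and 12.4% of 32851 mouse promoters of the same length, in that order. Counting back from the start, with position -1 as the base just before it, Egfr held a GC box at -9 on the reverse strand, and Areg held a cAMP response element at -61, a GC box at -52 and a TATA box at -31. Tgfa held GC boxes at -126 and -15 and AP-2 matches at -64 and -13, the last of which overlaps the GC box at -15. No motif was matched in Btc, Erbb2 or Erbb4. The GC content of these windows was 54% in Erbb4, 57.2% in Areg, 59.6% in Btc, 60.8% in Egfr, 66% in Erbb2 and 69.2% in Tgfa, against a median of 52.4% over all promoters. All of this is sequence only, and no chromatin data for these windows were used.

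Egfr, Areg and Ereg were expressed in MV+ and at or near 0 in RAG, whereas Grb7 was expressed in RAG and was at 0 counts in MV+. Hbegf was also higher in MV+, Tgfa and Erbb3 were higher in RAG, and Erbb2 was expressed in both lines with a small difference. Of the 10 genes, 9 had enough counts to be tested, and 5 were called higher in MV+ and 3 lower at an adjusted p under 0.05 (edgeR quasi-likelihood test, Benjamini-Hochberg adjusted over 12965 genes). Most genes differ between these lines: 79.3% of all genes tested were called, 40.4% higher in MV+ and 38.9% lower, so the count of 8 of 9 is close to the background. Of the called genes 50.9% were higher in MV+, or 61% with limma on log2(FPKM + 1). By size, 7 of the 9 were called past a log2 fold change of 1, which 35.2% of all genes tested reached, and the median absolute log2 fold change was 2.82 against 0.66. This contrast is a description only, because the members were chosen with earlier results of these data known. Egfr, Areg, Ereg and Grb7 also had only 30, 10, 0 and 0 counts in their lower line, and were tested through their counts in the other line. The median signed log2 fold change (MV+ minus RAG, as throughout) was 0.31 for the 9 genes and 0.03 for all, and both medians of the 9 are the same with Ereg and Grb7, which had 0 counts in 1 line, at the bounds given with them. In CPM, the libraries of the lines did not overlap for 8 of the 9 genes, and for 80.6% of all genes tested. Bulk RNA was measured, so fewer cells with a transcript and less transcript per cell cannot be told apart.

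**Figure D1:**
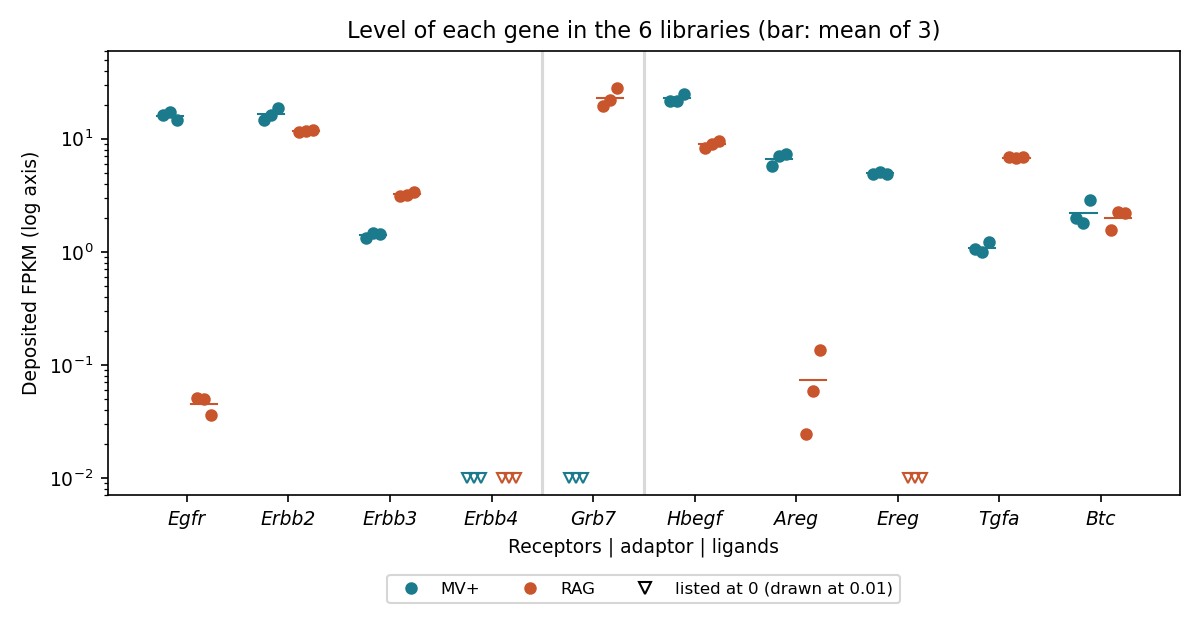
FPKM (reads scaled by transcript length and library total, log axis) of the receptors, the adaptor and the ligands, with 1 point per library, a bar at the mean of 3 libraries and open triangles for a value of 0, drawn at 0.01. Egfr and Areg lie far lower in RAG, Ereg is at 0 in RAG, Grb7 is at 0 in MV+, Erbb4 is at 0 in both lines, and the points of the lines overlap only for Btc and for Erbb4.

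The receptors differed between the lines chiefly in Egfr, the receptor of most EGF-like ligands (chromosome 11, 16652206 to 16813910, plus strand, mm9; 28 exons). It had 1812, 2167 and 2100 counts in the MV+ libraries, in replicate order as throughout, and 11, 9 and 10 in the RAG libraries. In RAG these few counts came from larger libraries, and the lines were far apart in every library. The MV+ level was 96.4 ± 9.58 CPM and the RAG level 0.313 ± 0.0708 CPM (SD, n = 3), for a log2 fold change of 8.29 ± 0.15 (SE, adjusted p = 1.89e-16 by edgeR), or 314-fold. The ratio of the summed counts was 317.1, with an exact 95% counting interval from 221.9 to 470.4 that is wider than the model's interval, log2 8.01 to 8.58. For comparison with so low a level, Col1a1, chosen after its values were seen, had 81238 counts in MV+ and 9 in RAG. Whether any of the 30 Egfr counts in RAG came from another library was not tested.

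Erbb2, the ligandless partner receptor (chromosome 11, 98273798 to 98299030, plus strand; 27 exons), had 1274, 1592 and 2087 counts in MV+ and 1934, 1654 and 2563 in RAG. Scaled by library size this was 70.8, 75.7 and 84.9 CPM in MV+ and 63.7, 63.4 and 59.5 CPM in RAG. The libraries did not overlap, and the gap between the nearest, 70.8 and 63.7 CPM, was about as large as the SD of the MV+ libraries, 7.14 CPM. The log2 fold change was 0.31 ± 0.08 (SE, adjusted p = 0.00157 by edgeR), or 1.24-fold higher in MV+, below the median absolute difference of all genes tested. The gene overlaps 1810046J19Rik on the minus strand by 9 bases at its end, where reads that touched both genes were not counted.

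Erbb3, the receptor with little kinase activity that binds neuregulins (chromosome 10, 128006424 to 128026557, minus strand; 28 exons), had the opposite direction. It had 93, 116 and 130 counts in MV+ and 427, 359 and 589 in RAG, and every RAG library was above every MV+ library. MV+ was at 5.33 ± 0.176 CPM and RAG at 13.8 ± 0.209 CPM (SD, n = 3), and the log2 fold change was -1.38 ± 0.10 (SE, adjusted p = 6.67e-09 by edgeR). RAG was 2.59-fold above MV+ in scaled counts, with a counting interval from 2.3 to 2.93. Erbb4, the neuregulin receptor that also binds several EGF-like ligands (chromosome 1, 68086540 to 69154633, minus strand; 27 exons), had 0 counts in all 6 libraries. A floor of 3 counts over a line allows up to 0.0118 FPKM in MV+ and 0.0067 in RAG, counting error only.

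The lengths of the receptor transcripts enter FPKM, so their levels can be set side by side on that scale. In MV+, Egfr was at 16.2, 17.1 and 14.5 FPKM and Erbb2 at 14.6, 16.2 and 18.6 FPKM, and their libraries overlapped. Egfr stood at 1.1, 1.06 and 0.781 times the FPKM of Erbb2, so neither was higher in all libraries. In RAG, the ratio of Egfr to Erbb2 was 0.00442, 0.00422 and 0.00303. Erbb3 was lower than Erbb2 in both lines, and Erbb2 was 11, 11 and 12.9 times Erbb3 in MV+ but 3.64, 3.71 and 3.5 times in RAG. Of the FPKM summed over the receptors, Egfr made up 50.3%, 49.2% and 42% in the MV+ libraries and 0.345%, 0.332% and 0.235% in RAG. Erbb2 made up 48.6% ± 4.5 in MV+ and 78.1% ± 0.455 in RAG, and Erbb3 made up 4.17% ± 0.0424 and 21.6% ± 0.51 (SD, n = 3). The sum itself was 33.8 ± 1.47 FPKM in MV+ and 15 ± 0.333 in RAG, and the lines did not overlap.

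Grb7, an adaptor that binds ERBB2 and other receptors through its SH2 domain, was detected in RAG and not in MV+. It lies 9118 bases after Erbb2 (chromosome 11, 98308148 to 98316687, plus strand; 15 exons). It had 1567, 1478 and 2888 counts in the RAG libraries and 0 counts in each MV+ library. The RAG level was 58.4 ± 7.85 CPM (SD, n = 3), with replicate 3 the highest at 67 CPM and replicate 1 the lowest at 51.6 CPM. Against a floor of 3 counts over the MV+ libraries, Grb7 was at least 1263.8-fold lower in MV+ (adjusted p = 1.32e-12 by edgeR). In RAG it had the highest FPKM of the 10 genes, 19.3, 21.8 and 27.9, and stood at 1.69, 1.86 and 2.35 times Erbb2. It exceeded 79.2% of the genes with an FPKM above 0 in that line, while Erbb2 exceeded 66.3%.

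Among the ligands, Hbegf, the heparin-binding ligand of EGFR and ERBB4 (chromosome 18, 36664581 to 36675459, minus strand; 6 exons), had the most counts in MV+. It had 899, 1008 and 1338 counts in MV+ and 668, 606 and 971 in RAG. The scaled libraries were separate, at 47.9 to 54.4 CPM in MV+ and 22 to 23.2 CPM in RAG. The log2 fold change was 1.17 ± 0.08 (SE, adjusted p = 1.30e-09 by edgeR), or 2.25-fold higher in MV+.

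Areg, which encodes amphiregulin, an EGFR ligand (chromosome 5, 91568641 to 91577458, plus strand; 6 exons), had 119, 165 and 196 counts in MV+ and 1, 2 and 7 in RAG. Its RAG libraries varied more in proportion than those of any other gene of the set, from 0.033 to 0.162 CPM, on so few counts. The MV+ level was 7.48 ± 0.75 CPM and the RAG level 0.0907 ± 0.0659 CPM (SD, n = 3), and the log2 fold change was 6.16 ± 0.27 (SE, adjusted p = 7.96e-12 by edgeR). Without RAG replicate 3, which held 7 of its RAG counts, it was 7.0. The ratio of summed counts was 75.1, with a counting interval from 40.5 to 157.6, and without that library it was 142.0, with an interval from 48.3 to 690.8.

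Ereg, which encodes epiregulin, a ligand of EGFR and ERBB4 (chromosome 5, 91503643 to 91522675, plus strand; 5 exons), lies 46 kb before Areg. It had 349, 418 and 454 counts in MV+ and 0 in every RAG library. The MV+ level was steady at 19.3 ± 0.718 CPM (SD, n = 3). Against the floor of 3 counts over RAG, Ereg was at least 636.9-fold higher in MV+ (adjusted p = 2.22e-13 by edgeR). Per length, Ereg was at 0.85, 0.734 and 0.671 times Areg in MV+, below it in every library.

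Tgfa, which encodes transforming growth factor alpha, an EGFR ligand (chromosome 6, 86145245 to 86225443, plus strand; 6 exons), was the member ligand that was higher in RAG. It had 77, 83 and 116 counts in MV+ and 987, 800 and 1248 in RAG. The lines were separate at 4.32 ± 0.387 CPM and 30.7 ± 1.78 CPM (SD, n = 3), a log2 fold change of -2.82 ± 0.11 (SE, adjusted p = 1.03e-12 by edgeR). RAG was 7.03-fold above MV+ in scaled counts, with a counting interval from 6.21 to 7.98.

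Btc, which encodes betacellulin, a ligand of EGFR and ERBB4 (chromosome 5, 91786287 to 91832020, minus strand; 6 exons), was the gene with overlapping libraries among those tested. It had 99, 101 and 187 counts in MV+ and 153, 183 and 274 in RAG. In CPM this was 5.5, 4.8 and 7.61 in MV+ and 5.04, 7.02 and 6.36 in RAG, with both the highest and the lowest value in MV+. The log2 fold change was -0.03 ± 0.17 (SE, adjusted p = 0.895 by edgeR). Its 95% interval ran from -0.36 to 0.31, so a difference of Btc within that range, in either direction, was not excluded.

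**Figure D2:**
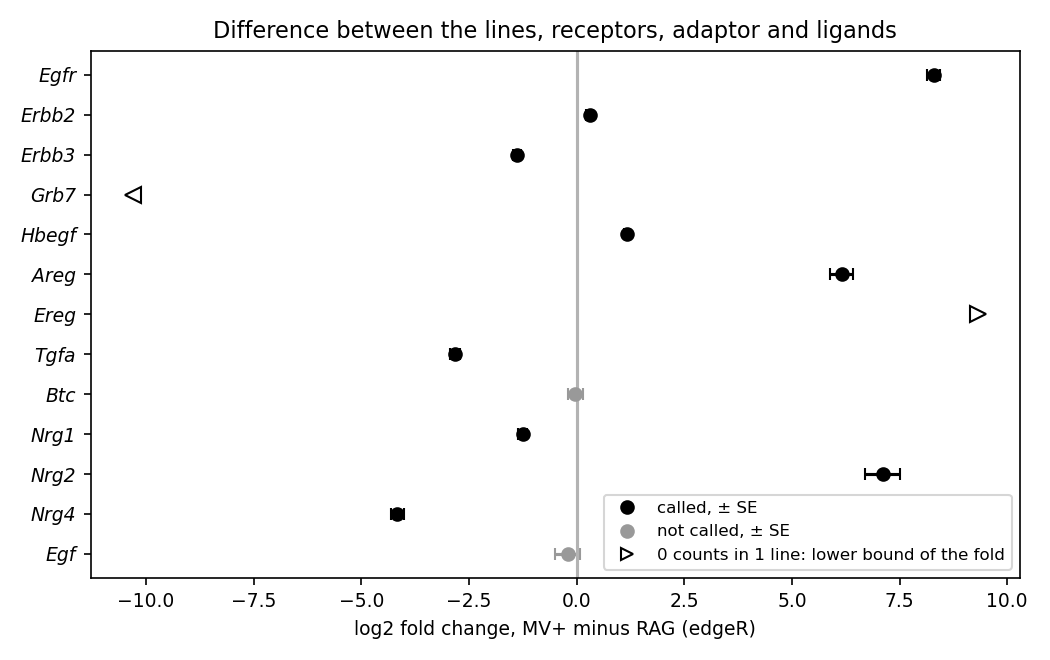
Log2 fold change of MV+ minus RAG for the tested receptors, the adaptor and the ligands of the EGF family, with SE bars from edgeR. Black points passed an adjusted p of 0.05, grey points did not, and open triangles give the lower bound for Grb7 (at least 1263.8-fold) and Ereg (at least 636.9-fold), which had 0 counts in 1 line. All the called genes shown lie beyond 1 in either direction except Erbb2, at 0.31.

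Set in order of FPKM, Hbegf was the highest of the 10 genes in MV+ at 22.8 ± 2.01, followed by Erbb2 at 16.5 ± 2.01 and Egfr at 15.9 ± 1.29, which overlapped. Areg followed at 6.66 ± 0.844, Ereg at 4.96 ± 0.154, Btc at 2.22 ± 0.596, Erbb3 at 1.41 ± 0.0732 and Tgfa at 1.09 ± 0.119 (SD, n = 3), each separate from the next in every library. In RAG the order was Grb7 at 23 ± 4.41, Erbb2 at 11.7 ± 0.216, Hbegf at 8.94 ± 0.579, Tgfa at 6.81 ± 0.107, Erbb3 at 3.23 ± 0.14 and Btc at 2.01 ± 0.379, again without overlap between neighbours. Areg at 0.073 ± 0.0566 and Egfr at 0.0453 ± 0.00812 FPKM overlapped in RAG and lay far below. Hbegf was thus the highest member ligand in both lines, but its margin differed: it stood at 20.8, 21.6 and 20.5 times Tgfa in MV+ and at 1.21, 1.35 and 1.39 times in RAG.

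The remaining ligands of the family were taken in full. Nrg1, a neuregulin that binds ERBB3 and ERBB4, was the highest of them, with 7.46, 7.39 and 5.96 FPKM in MV+ and 14.4, 14.7 and 14.5 in RAG, and a log2 fold change of -1.25 ± 0.10 (SE, adjusted p = 2.18e-08 by edgeR). Nrg4, a neuregulin that binds ERBB4, had 14, 13 and 22 counts in MV+ and 425, 382 and 555 in RAG, with a log2 fold change of -4.16 ± 0.16 (adjusted p = 1.55e-12 by edgeR). Its receptor Erbb4 had no count in either line. Nrg2, also a neuregulin, went the other way, with 66, 65 and 85 counts in MV+ and 0, 0 and 2 in RAG. Its log2 fold change was 7.11 ± 0.41 (adjusted p = 2.32e-10 by edgeR) and the counting interval of the ratio ran from 46.2 to 1404.4. RAG replicate 3 held its only RAG counts, and without that library Nrg2 was at least 63.9-fold higher in MV+, against 3 counts over the remaining RAG libraries. Egf, the founding ligand, was at 0.122 ± 0.0227 FPKM in MV+ and 0.126 ± 0.0145 in RAG and was not called (log2 fold change -0.21 ± 0.30, adjusted p = 0.538 by edgeR). Epgn, an EGFR ligand, had 19 counts in MV+ and 10 in RAG and was not tested, and Nrg3 had 0 counts throughout.

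The FPKM summed over all 11 ligands was 46.7 ± 2.55 in MV+ and 39.3 ± 1.12 in RAG. With limma on FPKM the median of all genes moved toward MV+ by 0.17 to 0.18 on the log2 scale, so these sums are not read as a difference. In CPM, the member ligands summed to 84.4 to 93.2 in MV+ and 58 to 61 in RAG, and the other ligands to 16.7 to 20.2 and 44.1 to 48.7. Hbegf made up 48.8% ± 1.8 of the summed FPKM in MV+ and 22.8% ± 0.896 in RAG, while Nrg1 took the largest share in RAG. Nrg1 made up 14.9% ± 2.55 in MV+ and 37% ± 0.835 in RAG, and Nrg4 made up 0.903% ± 0.142 and 17.2% ± 0.453. In MV+, Areg took 14.2% ± 1.33, close to the share of Nrg1, and Ereg took 10.6% ± 0.691. In RAG, Tgfa took 17.4% ± 0.729 and Areg 0.184% ± 0.14 (SD, n = 3). None of these shares overlapped between the lines in any library.

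**Figure D3:**
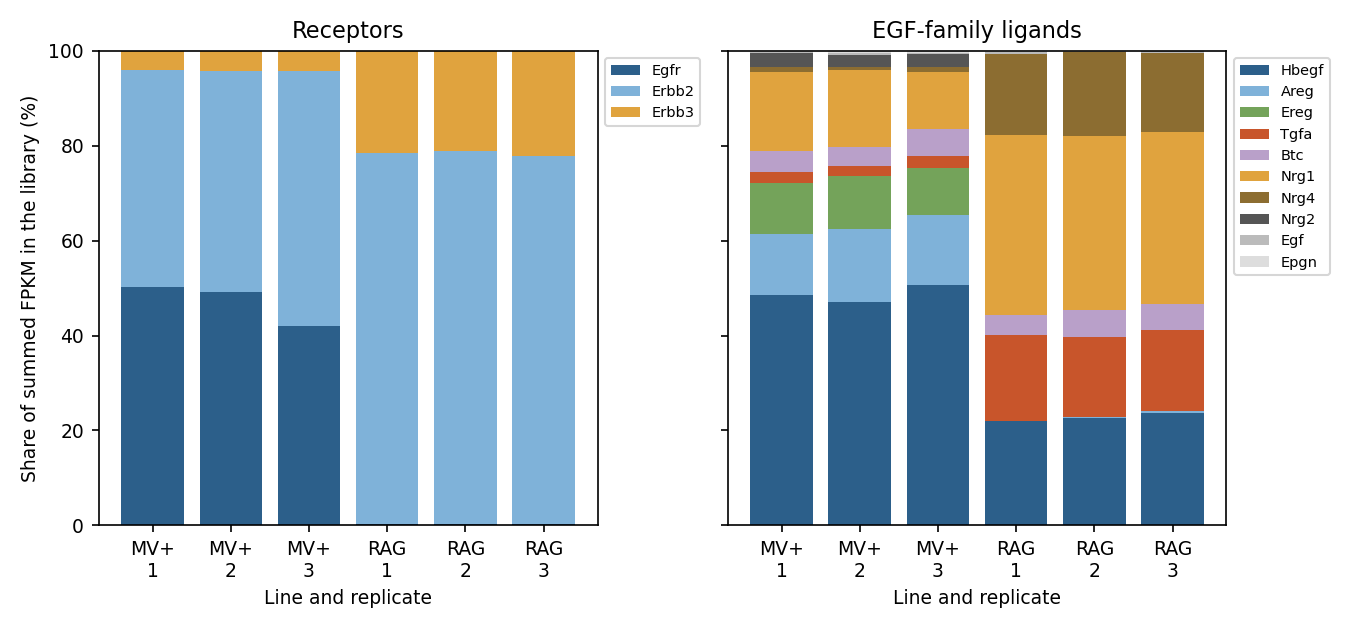
Share of the summed FPKM (percent, y axis) held by each receptor (left) and each ligand of the EGF family (right) in the 6 libraries, 1 bar per library. Egfr fills 42% to 50.3% of the receptor bar in MV+ and at most 0.345% in RAG, and Nrg1, Nrg4 and Tgfa take more of the ligand bar in RAG than in MV+.

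Several members lie near each other in the genome. Ereg and Areg were both higher in MV+ while Btc was not called, and Erbb2 and Grb7 differed in direction. Erbb2 and Grb7 are separated by 1810046J19Rik, a gene without a described role in the files, which was lower in MV+ at 26.7 against 51.6 CPM (log2 fold change -0.95 ± 0.08, adjusted p = 2.17e-08 by edgeR). Before Erbb2, Pgap3, a gene of GPI anchor remodelling, had a log2 fold change of 0.31 ± 0.11 (adjusted p = 0.0181 by edgeR), a call that was lost without MV+ replicate 2 (edgeR, adjusted p = 0.0518), RAG replicate 2 (edgeR, adjusted p = 0.0907) or MV+ replicates 1 and 2 together (edgeR, adjusted p = 0.213, where RAG alone gives the spread), and Tcap and Pnmt had at most 1 count per library. After Grb7, Ikzf3, a lymphoid transcription factor, had 0 counts, Zpbp2 had 5 counts in MV+ and 15 in RAG, and Ormdl3, a regulator of sphingolipid synthesis, was lower in MV+ at a log2 fold change of -0.43 ± 0.08 (adjusted p = 0.000219 by edgeR). Of these neighbours, the tested genes 1810046J19Rik, Pgap3 and Ormdl3 stayed within a log2 fold change of 1, and Grb7 did not.

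Ereg, Areg and Btc lie in this order on chromosome 5, with Epgn 39.4 kb before Ereg and Btc 208.8 kb after Areg. Cxcl2, a chemokine gene before them, had 1 count in MV+ and 504 in RAG (log2 fold change -7.94 ± 0.43, adjusted p = 1.15e-10 by edgeR), opposite in direction to Ereg and Areg. In summed counts RAG was 322.1-fold above MV+, with a counting interval from 57.5 to 12746.6. Without MV+ replicate 3, the library that held the single MV+ count, the level of Cxcl2 in MV+ was at least 65.9-fold lower, and without MV+ replicates 1 and 2 the ratio was 124.5, with an interval from 22.2 to 4927.1. Mthfd2l, a mitochondrial folate enzyme gene between Cxcl2 and Epgn, was not called (log2 fold change -0.17 ± 0.09, adjusted p = 0.0871 by edgeR). Parm1, a mucin-like gene just after Btc, had 3, 3 and 4 counts in MV+ and 2920, 1891 and 3184 in RAG (log2 fold change -8.96 ± 0.20, adjusted p = 1.32e-14 by edgeR), and the counting interval of the ratio, RAG over MV+, was 277.7 to 1065.9. Rchy1, a ubiquitin ligase gene, was lower in MV+ at a log2 fold change of -0.72 ± 0.07 (adjusted p = 1.17e-07 by edgeR), and Gm19619 and 1700063O14Rik had at most 2 counts per library.

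**Figure D4:**
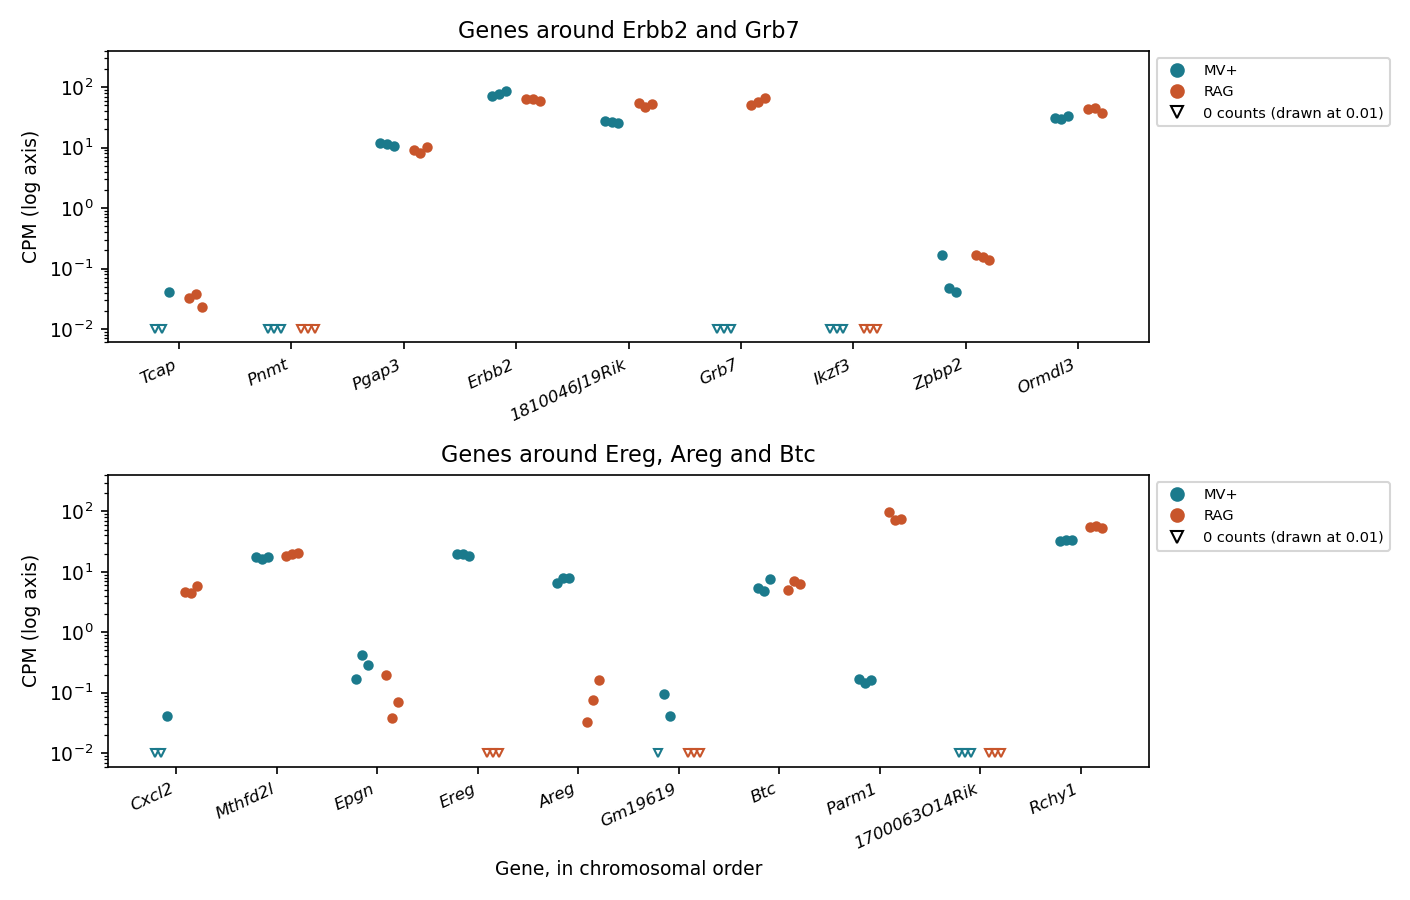
CPM per library (log axis) of the genes around Erbb2 and Grb7 (top) and around Ereg, Areg and Btc (bottom), in chromosomal order and not to scale, with open triangles for 0 counts, drawn at 0.01. Erbb2 has like levels in both lines while Grb7 is at 0 in MV+, and Ereg and Areg are high in MV+ where Cxcl2 and Parm1 are high in RAG.

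Genes of the pathway outside the receptors and ligands were described by list, with the same background of 40.4% of genes called higher and 38.9% lower. Past a log2 fold change of 1, in either direction, 35.2% of all genes tested were called. Values after "higher" or "lower" are log2 fold changes ± SE, MV+ minus RAG. Over the receptors, Grb7, the ligands and all pathway lists together, 54 genes were called higher in MV+ and 39 lower, against 59 and 33 with library totals without Rn45s and 58 to 59 and 27 to 28 with limma on FPKM. Of 10 tested sheddases and their regulators, which release or control the release of the ligands, 5 were higher in MV+ and 4 lower, and the median of the list was 0.75. Adam12, a metalloprotease that can release Hbegf, had 882 counts in MV+ and 0 in RAG, at least 460.1-fold higher (adjusted p = 3.48e-12 by edgeR). Frmd8, a cofactor of the iRhom proteins that stabilise ADAM17, was higher by 2.13 ± 0.08 on the log2 scale (edgeR, adjusted p = 1.08e-12). Adam17, the main protease for several of the ligands, was lower at -1.01 ± 0.08 (edgeR, adjusted p = 1.43e-08), and Adam9 was lower at -0.26 ± 0.07 (edgeR, adjusted p = 0.00251), a call that was lost when library totals without Rn45s were used (edgeR, adjusted p = 0.12) and with limma on FPKM (adjusted p = 0.293 to 0.304).

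Of the 19 adaptors and effectors, 7 were higher and 7 lower, and the median of -0.01 is near that of all genes. Gab1, a docking protein for PI3K and SHP2, was higher in MV+ by 2.37 ± 0.11 (adjusted p = 1.02e-11 by edgeR), and Eps8, a receptor substrate that acts on actin, was lower at -1.70 ± 0.07 (edgeR, adjusted p = 4.84e-12). Stat5a, a transcription factor, was lower at -0.93 ± 0.09 (edgeR, adjusted p = 2.16e-07). Grb2, the adaptor that brings SOS to the receptor, was higher by 0.42 ± 0.14 (edgeR, adjusted p = 0.0167), but not without RAG replicate 2 (edgeR, adjusted p = 0.0511) or without MV+ replicates 1 and 2 (edgeR, adjusted p = 0.0671, where RAG alone gives the spread). Among 13 genes of the RAS-MAPK module, 4 were higher and 4 lower, and 0 were called past a log2 fold change of 1. The RAS inhibitor gene Nf1 was higher by 0.97 ± 0.06 (edgeR, adjusted p = 1.31e-09) and Nras by 0.39 ± 0.08 (edgeR, adjusted p = 0.000223), while Hras1 was lower at -0.84 ± 0.07 (edgeR, adjusted p = 3.06e-08) and the kinase Mapk3 at -0.39 ± 0.10 (edgeR, adjusted p = 0.0035), a call that limma on FPKM did not make (limma, adjusted p = 0.0684 to 0.105).

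Of 14 genes of the PI3K-AKT module, 8 were higher in MV+ and 4 lower, with a median of 0.24. Pik3r3, a regulatory subunit of PI3K, was higher by 1.95 ± 0.10 (adjusted p = 5.40e-11 by edgeR) and Tsc2, an inhibitor of mTOR signalling, by 1.57 ± 0.07 (edgeR, adjusted p = 2.19e-11). Both of the kinase genes Akt1 and Akt2 were lower, at -1.05 ± 0.07 and -0.61 ± 0.07 (edgeR, adjusted p = 1.86e-09 and 6.47e-07). Of 15 tested genes of receptor feedback and degradation, 9 were higher and 3 lower, and the median was 0.28. Sh3kbp1, a CBL-binding protein of receptor endocytosis, was higher by 2.14 ± 0.08 (edgeR, adjusted p = 1.10e-12), and Lrig3, of a family of receptor regulators, by 2.07 ± 0.10 (edgeR, adjusted p = 3.52e-11). Tollip, an endosomal sorting protein, was lower at -1.0 ± 0.07 (edgeR, adjusted p = 3.01e-09), and Rnf41, a ubiquitin ligase for ERBB3, at -0.41 ± 0.07 (edgeR, adjusted p = 4.76e-05) in MV+, where Erbb3 was also the lower.

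The MAPK feedback genes, inhibitors that MAPK activity is known to induce, were 3 higher and 6 lower of 11 tested, with a median of -0.58. Dusp5, an ERK phosphatase, had 1245, 1356 and 1701 counts in MV+ and 0, 0 and 1 in RAG, a count ratio of 6731.8 whose counting interval starts at 1207.6. Its log2 fold change was 12.17 ± 0.21 (edgeR, adjusted p = 1.07e-16), and without RAG replicate 3, which held the count, it was at least 1272.3-fold higher in MV+. Spred3, an inhibitor of RAS-MAPK signalling, was higher in MV+ by 2.33 ± 0.20 (adjusted p = 1.21e-07 by edgeR). Spry1, a sprouty inhibitor, was lower at -3.85 ± 0.14 (edgeR, adjusted p = 8.05e-13), and Dusp4, another phosphatase, at -2.09 ± 0.10 (edgeR, adjusted p = 9.37e-11). Of 19 transcripts that EGF is known to induce, 12 were higher in MV+ and 6 lower, with a median of 0.93. Counting both directions, 12 of the 19 were called past a log2 fold change of 1, against 35.2% of all genes tested. Ptgs2, the inducible cyclooxygenase, averaged 146.1 ± 10.5 CPM in MV+ against 0.426 ± 0.231 in RAG (SD over 3 libraries, log2 fold change 8.48 ± 0.16, adjusted p = 3.98e-15 by edgeR). Egr1, an immediate early transcription factor, averaged 88.3 ± 18.8 CPM in MV+ against 1.56 ± 0.338 in RAG (log2 fold change 5.78 ± 0.21, adjusted p = 2.09e-08). Ccnd1, the G1 cyclin, was lower in MV+ at -2.76 ± 0.08 (edgeR, adjusted p = 2.86e-14), and Etv5, an ETS factor, at -1.55 ± 0.11 (edgeR, adjusted p = 2.51e-09). Genes of this list answer to many other signals as well, and EGFR activity was not measured.

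**Figure D5:**
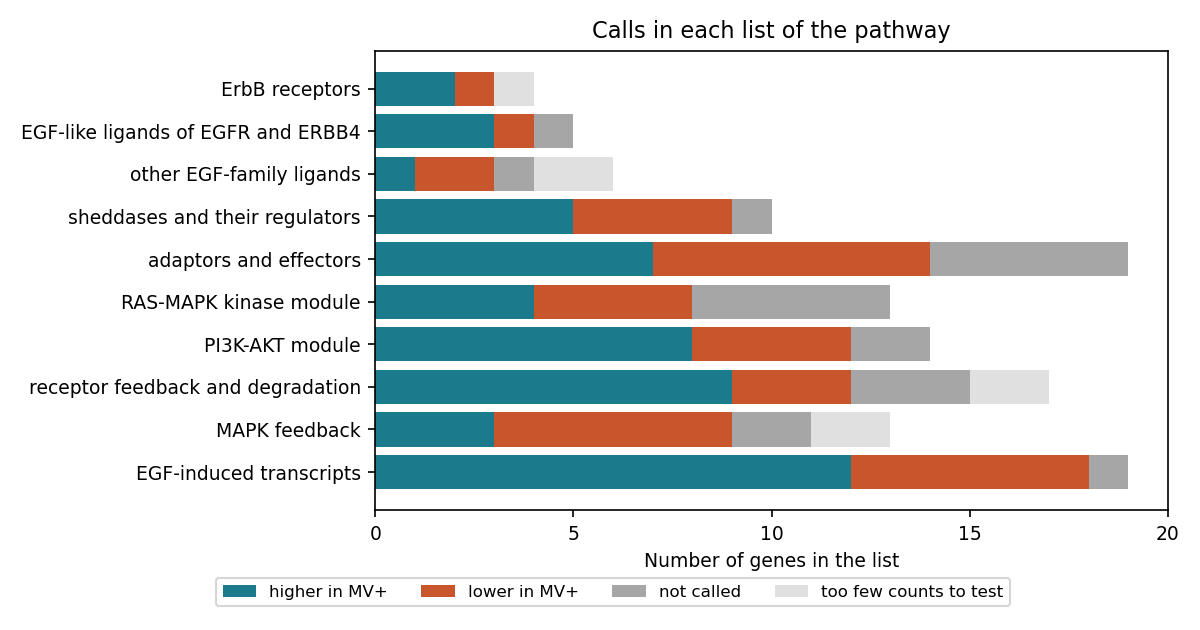
Number of genes (x axis) called higher in MV+, called lower in MV+, not called and not tested in each list of the pathway (edgeR, adjusted p under 0.05). The bars run from 4 genes for the receptors to 19 for the adaptors and for the EGF-induced transcripts, and every list holds genes that were called in each direction.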

How the data were processed

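RNA-seq libraries of 3 cultures each of MV+ and RAG were analysed. The reads were 50 nt long and unpaired, from a kit that is not stated to mark strand. Per the study's methods, the authors aligned them to mm9 with TopHat2 version 2, used SAMtools 1.6 and counted RefSeq genes with featureCounts of Subread 1.5. The header of the deposited table gives version 1.5.0-p3 and a command with no option on strand or shared reads, and this default ignores strand and leaves out reads with several alignments or over several genes, so a shared stretch is undercounted. The deposited counts are raw. The authors derived the deposited FPKM from those counts, the summed exon length and the library total.

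Counts were tested with edgeR 4.0.16 (R 4.3.3; filterByExpr, TMM, robust quasi-likelihood test, two-sided, no block) over 12965 genes, with Benjamini-Hochberg adjustment and a threshold of 0.05. Log2 fold changes are given as MV+ minus RAG. The SE can understate counting error at few counts, so exact 95% intervals of count ratios are given, which cover counting error only. Where a line had 0 counts, the fold is a bound against 3 counts over that line. Alternatives were DESeq2 1.42.0, upper quartile scaling, library totals without Rn45s, other filters, a replicate block, limma 3.58.1 on log2(FPKM + 1) or log2(FPKM + 0.1), and leaving out each library. Leaving out MV+ replicates 1 and 2 together was added after the data were seen.

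The members and the gene lists were chosen with earlier results of these data known. The text names all members and the other ligands, 3 genes on each side of the Erbb2-Grb7 pair and of the Areg-Ereg-Btc group, and up to 2 called genes per list and direction with the largest change, at a minimum mean of 5 CPM in the line with more. Values, errors and calls come from the fit without a block. Deviations from the line means correlated weakly for every same-numbered pair (r = 0.218, 0.143 and 0.134), although the labels name no shared day, and the replicate block was therefore read as a paired alternative. The libraries of a line differed by more than sampling noise (chi-square per degree of freedom 9.33 to 98.4). The fit was checked on simulated counts. Promoter sequences are from RefSeq (GRCm38.p6).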

Additional observations from a re-analysis of the deposited data

How the results depend on the processing

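All 9 tested genes of the set kept their direction, where called, and their side of the threshold under the 16 alternatives, and 5 were called higher and 3 lower under each. The replicate block called 10766 genes against 10285 and changed no call of a named gene. The log2 fold change of Erbb2 ranged from 0.24 to 0.49 and that of Btc from -0.26 to 0.31. On the log2(FPKM + 1) or log2(FPKM + 0.1) scale, changes of low genes are compressed: Egfr was 4.02 at the lowest and Areg 2.83. Library totals without Rn45s moved the median of all genes by 0.15 and limma on FPKM by 0.17 to 0.18, and called genes were then 58.7% and 59.8% to 61% higher in MV+, against 50.9%. The calls of Adam9, Mapk3, Grb2 and Pgap3 were lost in 4, 3, 2 and 3 alternatives. Depth limits the low side of Egfr, Areg, Nrg2, Cxcl2, Parm1 and Dusp5, which had 30 counts or fewer in the lower line.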
